A study of Mus musculus with 2 samples.

Results

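The probes described here are those whose single miRBase accession is numbered from 4500 to below 4700, a range said to hold mostly minor (star) arms of known microRNAs. After 3 accessions were left out by the same rule, 80 of the 739 rows of the deposited table remained, numbered 4519 to 4691. They were set beside the 203 rows numbered under 1000, said to be mostly main arms. The rule uses accession numbers and no measured value, though it was written with earlier results of these data known. The files give accessions and no miRNA names, so whether each probe reads a minor arm was not checked, and the probes are called here by their numbers, as 4500 up to 4700.

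A microRNA is cut from a hairpin RNA as a short duplex, and one strand is loaded into an Argonaute protein to guide repression of messenger RNAs with matching sites. The other strand, long called the star strand or minor arm, is mostly degraded, and is usually the scarcer of the pair in a cell. Some minor arms are loaded as well and repress targets of their own, because their seed differs from that of the main arm.

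Levels were measured in 2 mouse epidermal keratinocyte lines of the Balb/c strain. Pam212 transformed spontaneously and is labelled non-metastatic, and LY-1 is its metastatic derivative. Both were grown to confluency in DMEM with 10% FCS and left untreated, and total RNA was labelled with the dye Hy5 and hybridised to 1 array per line. Each line was 1 plate, so no difference below has a replicate check, no test was possible, and LY-1 stands here as 1 derived line. The epithelial identity of the lines was not checked on marker miRNAs, since the rows carry no names.

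Fewer of the probes numbered 4500 up to 4700 had a value than of those numbered under 1000. In Pam212, 47 of the 80 had an intensity (58.8%), against 148 of 203 (72.9%). In LY-1, 45 of the 80 had one (56.3%), against 142 of 203 (70.0%). Over all 739 rows the shares were 62.2% in Pam212 and 59.1% in LY-1, so the 80 probes lay 3.50 and 2.88 percentage points below the whole array. The sources used here do not say what a cell without a value stands for.

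Both arrays gave a value for 34 of the 80 probes (42.5%), against 61.6% of the 203 and 47.9% of all rows. Another 13 had a value in Pam212 alone and 11 in LY-1 alone, and 22 had none on either array (27.5%, against 18.7% of the probes numbered under 1000 and 26.5% of all rows). The 24 probes with a value in 1 line were dim there. The brightest of them in Pam212, MIMAT0004668, read 1.88 with no value in LY-1. In LY-1 the brightest was MIMAT0004644, at 2.19 with no value in Pam212. None of the 24 reached 2.26 intensity units, the pooled median of the table, which was used as the brightness floor. Over all rows, 11 of the 189 with a value on 1 array reached it, and among the probes numbered under 1000, 4 of 40.

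Smaller shares of the 80 probes than of those numbered under 1000 reached each level of brightness examined. At or above 2.26 units stood 17 of the 80 in Pam212 (21.3%) and 20 in LY-1 (25%), against 92 (45.3%) and 98 (48.3%) of the 203. At 5 units or more there were 6 of the 80 on each array (7.5%), against 76 (37.4%) and 73 (36.0%). At the pooled 75th percentile, 11.0 units, there were 3 in Pam212 (3.75%) and 4 in LY-1 (5.0%), against 61 (30.0%) and 65 (32.0%). At 50 units or more there was 1 of the 80 on each array (1.25%), against 39 (19.2%) and 42 (20.7%). At 100 units or more there was 0 of the 80 on either array, against 17 of the 203 in Pam212 (8.37%) and 28 in LY-1 (13.8%). A probe's intensity depends on its own binding as well as on the amount of RNA, so these shares compare signals and not numbers of molecules.

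**Figure D1:**
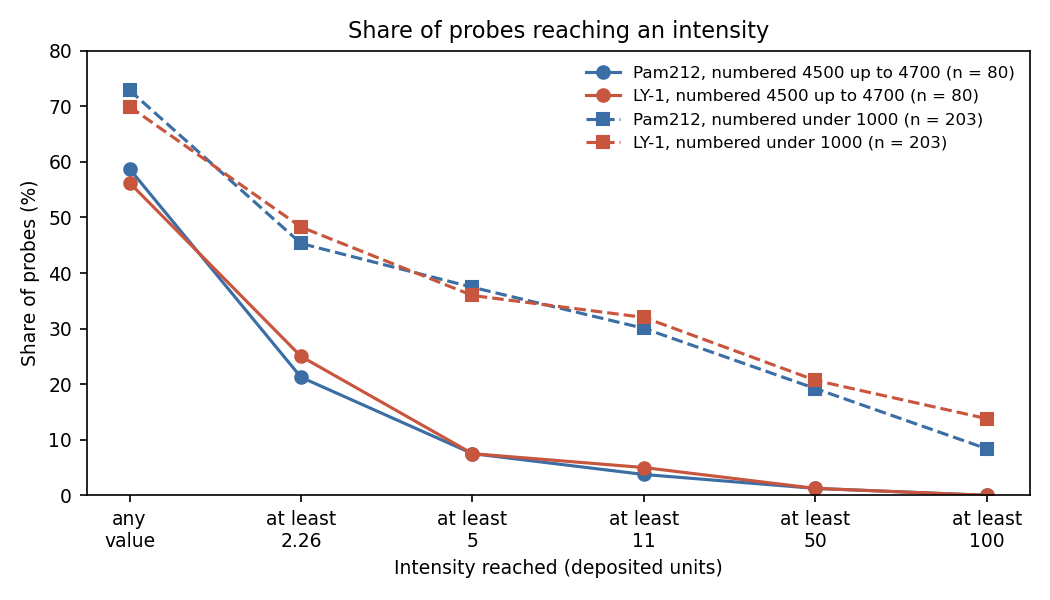
Share of probes (vertical axis, percent) with an intensity at or above the value on the horizontal axis (deposited units, unequal steps), for the 80 probes numbered 4500 up to 4700 (solid lines, circles) and the 203 numbered under 1000 (dashed lines, squares) on 1 array per line. The 4500 up to 4700 probes start at 58.8% and 56.3% with any value and drop to 7.5% at 5 units, whereas the other set still holds 37.4% and 36.0% there. The whole array, of 739 rows, holds 19.6% (Pam212) and 19.2% (LY-1) at that level.

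Among probes with a value, the median intensity of those numbered 4500 up to 4700 was 1.82 on the Pam212 array and 1.91 on the LY-1 array. The probes numbered under 1000 had medians of 5.14 and 5.69. The upper quartiles of these 2 sets were further apart, at 2.60 and 3.55 against 54.3 and 64.9. Over all rows the medians were 2.16 and 2.44, and the upper quartiles 9.71 and 13.6. Low levels were not particular to the 80. The probes numbered from 4700 to below 5000 had medians of 1.56 and 1.67 and upper quartiles of 2.11 and 3.28. The 80 probes together held 0.209% of the summed intensity of the Pam212 array and 0.236% of that of LY-1, and the 203 held 7.50% and 10.1%. These totals include very bright rows. The brightest single row read 51458.5 for Pam212 and 51140.3 for LY-1, whereas the 203 summed to 6877 and 8730. The lowest values of the 80 were 0.971 for Pam212 and 0.973 for LY-1, close to the lowest of any probe, 0.943 and 0.948.

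A few of the 80 probes stood well above the others, and the same 5 were the brightest in both lines. MIMAT0004634 led with 52.7 for Pam212 and 52.7 for LY-1, a log2 difference (LY-1 minus Pam212) of 0.00, and ranked 68 among the values of either array. MIMAT0004528 read 25.1 for Pam212 and 19.6 for LY-1, a log2 difference of -0.36. MIMAT0004628 read 13.3 and 16.3, a log2 difference of 0.29. These differences were all under 2-fold, the size set as the threshold for counting a probe as higher or lower.

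Next in brightness, MIMAT0004669 read 9.97 for Pam212 and 15.6 for LY-1, a 1.57-fold difference. MIMAT0004536 read 7.75 and 10.1, a 1.31-fold difference. After these 5 the values dropped: MIMAT0004582, sixth in mean log2 intensity, read 5.59 for Pam212 and 3.49 for LY-1. MIMAT0004635 read 3.21 for Pam212 and 4.53 for LY-1, and MIMAT0004630 read 4.02 and 3.55. Of the 10 brightest by mean log2 intensity, 7 read higher in LY-1 and 1, MIMAT0004629, differed by 2-fold or more. Among all rows with both values and the brighter at 2.26 units or more, 51.6% read higher in LY-1. In those with the brighter at 11.0 units or more, 60.3% did. Of all rows at 2.26 units or more, 12.7% were higher and 6.35% lower by 2-fold or more.

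Past the floor, with a value on both arrays and the brighter of them at 2.26 units or more, were 24 of the 80 probes (30.0%), against 103 of the 203 numbered under 1000 (50.7%) and 34.1% of all rows. Their log2 differences ran from -1.10 to 1.34, with a median of 0.35 and quartiles of -0.20 and 0.69. The probes numbered under 1000 ran from -2.47 to 2.93, with a median of 0.29 and quartiles of -0.16 and 0.75. The medians were 0.06 apart, small beside quartile ranges of 0.90 and 0.92. Over all 252 rows past the floor the median was 0.03. Above 0 lay 16 of the 24 (66.7%), 71 of the 103 (68.9%) and 51.6% of the 252. Of the scalings tried, only division of each array by its own 75th percentile turned the sign of both medians. It shifted every difference by -0.49, and the medians then read -0.14 and -0.20, with the same 0.06 between them. Under the other scalings they stayed above 0, at 0.23 to 0.36 for the 24 and 0.14 to 0.30 for the 103.

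Higher in LY-1 by 2-fold or more were 3 of the 24 probes (12.5%), against 17 of the 103 numbered under 1000 (16.5%) and 12.7% of all rows past the floor. Lower by 2-fold or more was 1 of the 24 (4.17%), against 7 of the 103 (6.80%) and 6.35% of all rows. Both shares lay near the background of the array. Dividing each array by its own 75th percentile turned the balance, to 0 higher and 4 lower of the 24, with 17 higher and 48 lower of the 252 rows. Under the other scalings 3 to 5 of the 24 were higher and 0 to 1 lower, with 27 to 32 higher and 16 to 22 lower of the 252. As deposited, the remaining 20 of the 24 differed by less than 2-fold. None of the 4 with larger differences read above 5.38 on either array.

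MIMAT0004575 had the largest difference, with 1.19 for Pam212 and 2.997 for LY-1, or 2.52-fold. MIMAT0004545 read 1.63 for Pam212 and 3.58 for LY-1, or 2.20-fold. Both Pam212 values lay under the floor. MIMAT0004629, at 2.49 for Pam212 and 5.38 for LY-1, or 2.16-fold, was the only one of these 3 with both values at or above it, and it stood just inside the threshold. Just outside were MIMAT0004523, at 2.41 and 4.68 (1.94-fold), and MIMAT0004663, at 1.24 and 2.34 (1.89-fold). With a pseudocount of 1.02, the 5th percentile of all values, the 3 log2 differences of 1.34, 1.14 and 1.11 became 0.86, 0.80 and 0.87, and none reached 2-fold. They also fell short under the scaling by each array's own 75th percentile, at 0.85, 0.65 and 0.62. Under the other scalings tried all 3 stayed past 2-fold, with log2 differences from 1.07 to 1.43.

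In the other direction, MIMAT0004525 read 3.78 for Pam212 and 1.76 for LY-1, a 2.15-fold difference. Its log2 difference of -1.10 became -0.79 with the pseudocount and -0.99 after quantile normalization, and under neither was it 2-fold. It was -1.59 after division by each array's own 75th percentile, and from -1.15 to -1.07 under the other 3 scalings. MIMAT0004582 followed at 1.60-fold lower in LY-1. MIMAT0004522 read 2.61 and 1.74, and MIMAT0004626 read 2.47 and 1.65, log2 differences of -0.59 and -0.58. Of the 8 lowest, 4 had a LY-1 value under the floor, and of the 8 highest, 3 had a Pam212 value under it.

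**Figure D2:**
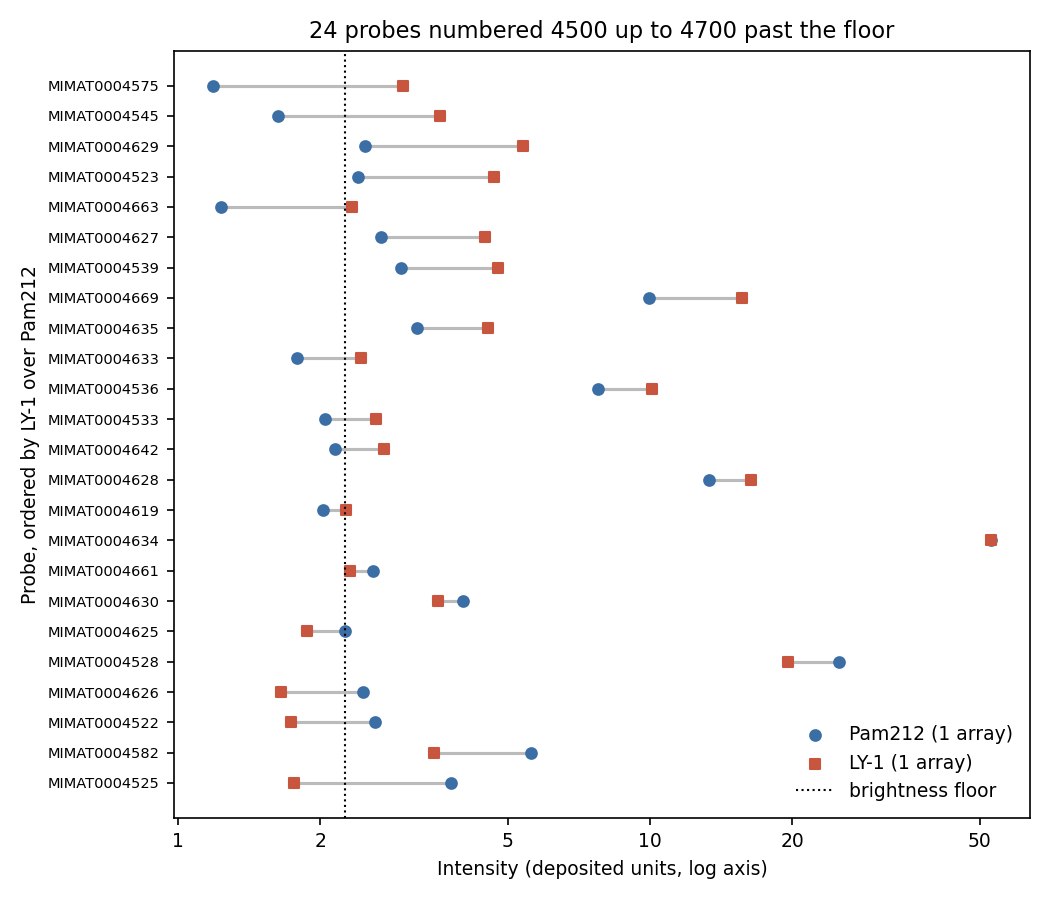
Intensity (horizontal log axis, deposited units) of the 24 probes numbered 4500 up to 4700 past the floor, with circles for Pam212 and squares for LY-1, 1 array each, ordered by LY-1 over Pam212; the dotted line is the floor of 2.26. As deposited, 16 of the 24 read higher in LY-1, against 130 of all 252 rows past the floor. After each array is divided by its own 75th percentile 9 do, against 70 of the 252. Under the other scalings 14 to 16 do, against 113 to 131. The brightest, MIMAT0004634, reads 52.7 in both.

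The other members of the 8 highest were MIMAT0004627, at 2.70 for Pam212 and 4.46 for LY-1, MIMAT0004539, at 2.96 and 4.76, and MIMAT0004669, given above. Together the 8 highest had log2 differences from 0.65 to 1.34, and the 8 lowest from -1.10 to -0.17. The 8 lowest also held MIMAT0004625, at 2.26 and 1.88, and MIMAT0004661, at 2.59 and 2.31. Apart from MIMAT0004669 and MIMAT0004528, the probes at either end stayed under 11.0 units on both arrays. A further 10 probes had values on both arrays but under the floor, between 0.971 and 2.16 units. Their log2 differences ran from -0.58 to 0.97, 5 above 0 and 5 below, and 0 of the 10 differed by 2-fold or more.

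The probes numbered under 1000 were brighter, so the differences were also set side by side within bands of brightness, an arrangement chosen after the values were seen. With the brighter value from 2.26 to 11.0 units, the 20 probes numbered 4500 up to 4700 had a median log2 difference of 0.37, with quartiles of -0.20 and 0.78. The 36 numbered under 1000 had 0.15, with quartiles of -0.32 and 0.64, and all 131 rows of this band had -0.14. Counts past 2-fold in this band were 3 higher and 1 lower of the 20, and 5 higher and 5 lower of the 36. Of all 131 rows, 15 were higher and 12 lower. At 11.0 units and above, 4 probes numbered 4500 up to 4700 had a median of 0.15, against 0.32 for the 67 numbered under 1000 and 0.13 for all 121 rows. The order of the medians thus turned between the bands, by 0.22 in one and -0.17 in the other. Both gaps lay within the quartile ranges of the sets, and the upper band rests on 4 probes.

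**Figure D3:**
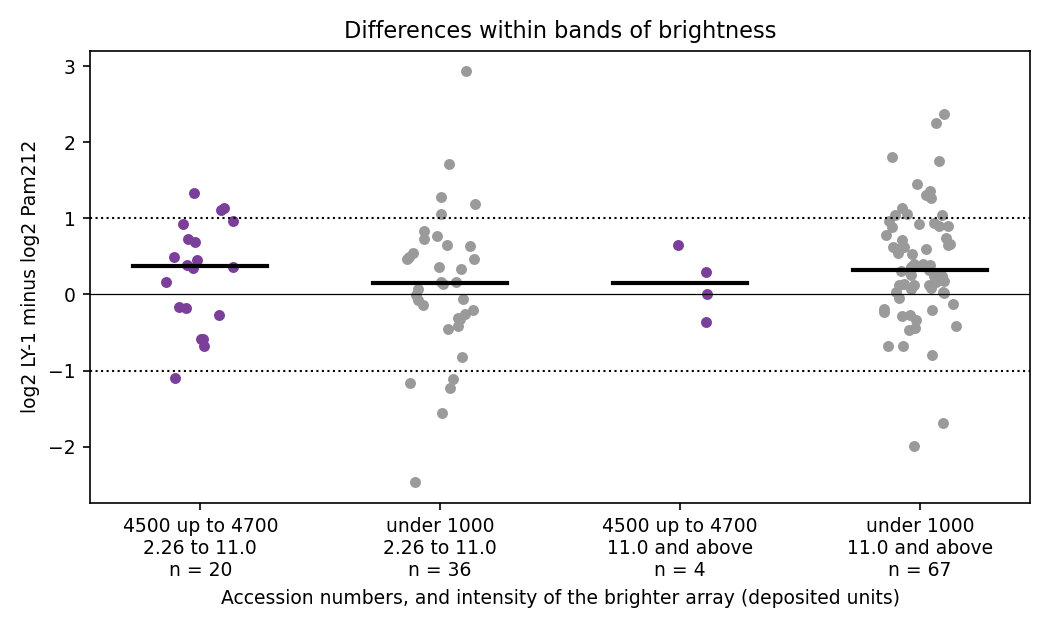
Log2 LY-1 minus log2 Pam212 (vertical axis) of single probes as deposited, by accession range and by the intensity of the brighter array, with a bar at each median, dotted lines at 2-fold and points spread sideways for sight. Medians are 0.37 and 0.15 in the dimmer band and 0.15 and 0.32 in the brighter one; dividing each array by its own 75th percentile lowers every point by 0.49, which turns 4 of the 4 medians negative.

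The spread of the differences was narrower in the 4500 up to 4700 probes than in those numbered under 1000 by SD (0.64 against 0.85, over 24 and 103 probes) and close by the range between quartiles (0.90 against 0.92). The SD of 0.64 leaves out MIMAT0004684, which lies in the range with a log2 difference of 2.41, and the SD with it was not computed. The largest difference among the 24 was 1.34 in size, and the probes numbered under 1000 ran from -2.47 to 2.93. Between the lines, the log2 intensities of the 34 probes with both values had a Pearson's r of 0.892 and a Spearman's rho of 0.679, against 0.957 and 0.931 over those numbered under 1000 with both values. Over all rows with both values they were 0.964 and 0.872. The probes numbered from 4700 to below 5000 had 0.860 and 0.707. These are descriptions across probes that share the same pair of arrays. The lower values of the 34 probes, set beside those numbered under 1000, go with a narrower range of brightness. The part played by that range was not tested.

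**Figure D4:**
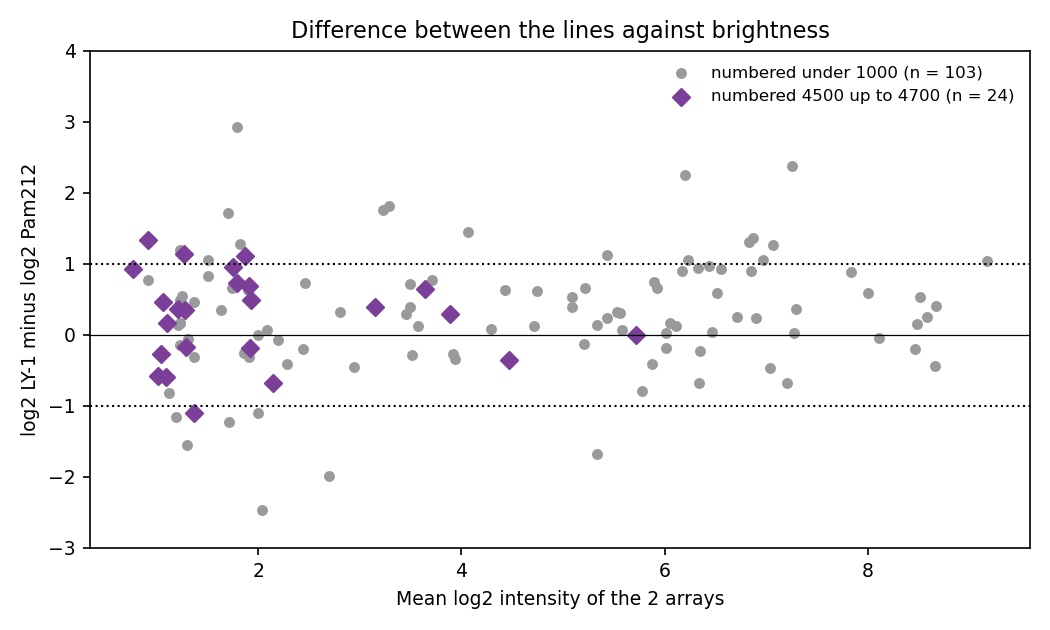
Log2 LY-1 minus log2 Pam212 (vertical axis) against mean log2 intensity (horizontal axis) for the 24 probes numbered 4500 up to 4700 (diamonds) and the 103 numbered under 1000 (circles) past the floor, as deposited, with dotted lines at 2-fold. The 4 diamonds past 2-fold have mean log2 intensities from 0.92 to 1.87, and under division by each array's own 75th percentile every point moves down by 0.49.

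The 80 probes fell into 3 runs of close numbers and 1 single accession, with gaps of 20 or more between them, a split drawn after the values were seen. Of the 27 numbered 4519 to 4547, 15 had a value in Pam212 (55.6%) and 11 in LY-1 (40.7%). Of the 12 numbered 4572 to 4583, 7 and 6 had one. Of the 40 numbered 4616 to 4670, 24 had a value in Pam212 (60.0%) and 27 in LY-1 (67.5%). The first run thus had fewer values in LY-1 than in Pam212 and the last run had more. Past the floor were 8, 2 and 14 probes of the runs, with median log2 differences of 0.37, 0.33 and 0.32. The single accession, MIMAT0004691, read 1.74 for Pam212 and 1.22 for LY-1, under the floor.

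Neighbouring numbers outside the range gave smaller median differences. The 15 probes numbered from 4700 to below 5000 that passed the floor, of 93, had a median log2 difference of 0.03. That of all 252 rows past the floor was also 0.03. Of the 15, 1 was higher and 1 lower by 2-fold or more, against 12.7% and 6.35% of the 252. Of the 93, 53.8% had a value in Pam212 and 36.6% in LY-1. These shares differed more between the lines than the 58.8% and 56.3% of the 80 probes. Of the 10 numbered from 4000 to below 4500, 3 passed the floor. With 15 and 24 probes, quartiles of -0.40 to 0.56 and -0.20 to 0.69 overlapped widely.

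Of the 3 accessions in the range that were left out, MIMAT0004684 read 3.90 for Pam212 and 20.8 for LY-1, a 5.33-fold difference, larger than that of any of the 24. MIMAT0004653 read 1.11 and 0.949, under the floor, and MIMAT0004541 had no value on either array. With the 3 put back, 4 of 25 probes read higher in LY-1 by 2-fold or more and 1 lower. Of all 252 rows past the floor, 32 were higher and 16 lower. The median log2 difference of the 25 was 0.36. The choice to leave out MIMAT0004684 therefore sets how large a difference the range shows, and hardly moves its median.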

How the data were processed

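Per the labels' protocols, RNA was labelled with Hy5 using the miRCURY LNA kit. The authors deposited linear intensities, 1 per probe and line, and their scanning, background treatment, combining of the duplicate spots, scaling and rule for cells without a value are not given in the sources used here. Medians over the 354 rows with both values were 3.21 for Pam212 and 3.31 for LY-1, so no scaling was added. Differences are log2 LY-1 minus log2 Pam212 without a pseudocount. Precision per probe is unknown, and 1 array per line limits it.

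The members and lists were chosen with earlier results of these data known. Named probes are the 10 brightest, the 8 with the largest difference in each direction past the floor, the brightest with a value on 1 array, and those next to the 2-fold threshold. For 1-array probes, none passed the floor, and the brightest of each line is given. Of the accessions, 0 occurred in the miRNA sequence table (GRCm38.p6), so names, arms, hairpins, sequences, the named families and the marker lists were not analysed here. Python 3.11.15, numpy 2.4.6, pandas 2.3.3, statsmodels 0.14.6 (lowess, span 0.5) and matplotlib 3.10.9 were used, and the calculation was tested on simulated data.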

Additional observations from a re-analysis of the deposited data

How the results depend on the processing

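The gap of 0.06 between the medians was 0.06 to 0.15 under the 5 scalings, but was -0.072 with no floor, -0.17 with the brighter value at the pooled 75th percentile, 0.00 (-0.0043) with the pseudocount, and 0.36 against all single-accession rows outside the range, whose median was -0.01 (-0.0058). Division by each array's own 75th percentile gave medians of -0.14 and -0.20 and counts of 0 higher and 4 lower, because it moves every difference by -0.49. Quantile normalization gave medians of 0.23 and 0.14, with 3 higher and 0 lower, against 27 and 22 of all 252 rows past the floor. Lowess gave 5 higher and 1 lower, against 31 and 16 of the 252. The median of the 4500 up to 4700 probes was 0.14 with no floor, over 34 probes, and 0.15 at the 75th percentile, over 4. Of those 4, 0 were higher and 0 lower, against 17 and 4 of 121 rows. With both values at the floor, 1 of 13 was higher and 0 lower, against 18 and 6 of 186 rows. The pseudocount left 0 higher and 0 lower, against 25 and 8 of the 252. At 1.5-fold, 8 of 24 were higher and 3 lower, against 25% and 17.1% of all rows past the floor. At 3-fold, 0 were higher and 0 lower, against 15 and 7 of the 252. Shares with a value at the pooled median and at the pooled 75th percentile were 21.3% and 3.75% in Pam212 and 25% and 5.0% in LY-1, and for the numbers under 1000 they were 45.3% and 30.0% in Pam212 and 48.3% and 32.0% in LY-1; stricter limits lower them by construction. With cells without a value set to the lowest value of the array, median levels were 1.21 in Pam212 and 1.16 in LY-1. Apart from these constructions the cause was not tested. Putting the 3 accessions back moved no median by 0.1. Scaling by the 75th percentile of shared probes, added after seeing the data, gave a median of 0.31. The alternatives that needed names or hairpins were not run. No paired analysis was possible because each line has 1 array. Of the 80 probes, 56 could not enter the differences, 46 for want of a value on at least 1 array and 10 because both values were under the floor.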

Other observations

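Among the 5 rows with several accessions, 2 name an accession in the range from 4500 to below 4700 and were left out because the signal belongs to more than 1 entry. The row pairing MIMAT0000230 with MIMAT0004667 had no value in Pam212 and 0.988 in LY-1. The row pairing MIMAT0004620 with MIMAT0005439 read 1.07 for Pam212 and 1.25 for LY-1, a log2 difference of 0.23. Both rows lay under the brightness floor.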
